A study of Mus musculus with 2 samples.

Results

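The semaphorins, plexins and neuropilins form one of the main families of axon guidance molecules. The mouse genes counted here are the protein-coding genes named Sema3 to Sema7, Plxna to Plxnd, Nrp1 and Nrp2, chosen by symbol alone. They comprise 31 genes, of which 20 encode semaphorins, 9 plexins and 2 neuropilins, out of 22028 protein-coding genes and 55536 annotated genes in all. Their levels were measured by RNA sequencing of poly-A RNA from whole forebrains of 2 newborn pups of mouse strain B6NCrl, aged 0 days, called pup 1 and pup 3. The labels give no treatment, genotype or second group, leave the sex uncollected, and give both pups the same donor entry. Each library was made from 10 ng of RNA by oligo-dT priming and tagmentation, and holds the forebrain of a single pup. The design therefore asks at what level each gene is present in the newborn forebrain and how far 2 pups differ, and it allows no test between groups. A value with ± is the mean and SD of the 2 pups.

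Semaphorins are secreted or membrane-bound ligands that steer growing axons and migrating neurons, mostly by repulsion, and that also act on blood vessels and synapses. Plexins are their signalling receptors and act through small GTPases on the cytoskeleton. Most secreted class 3 semaphorins do not bind plexins directly and need a neuropilin as co-receptor, whereas semaphorins of classes 4 to 7 bind plexins without one.

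Levels are given in TPM, a unit that corrects for transcript length and has the same total in every library. A gene counts as detected where each pup shows at least 1 TPM. By that limit 29 of the 31 genes were detected, beside 59.5% of all protein-coding genes. Of these, 16 had a mean TPM of 10 or more, 8 lay between 5 and 10, and 5 between 1 and 5. The median over the 31 genes was 14.58 in pup 1 and 8.03 TPM in pup 3, and the median of the gene means was 12.62 TPM. The median over all protein-coding genes was 3.77 TPM. Among detected genes alone the order was the other way, with a median of 13.06 TPM for the family and 17.07 TPM for protein-coding genes. The libraries held 40964891 and 41230878 estimated counts, of which the family took 59472 (0.145%) in pup 1 and 43987 (0.107%) in pup 3. Across both pups, 24 of the 31 genes had at least 1000 counts, the median gene had 2799, and the lowest had 54.

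**Figure D1:**
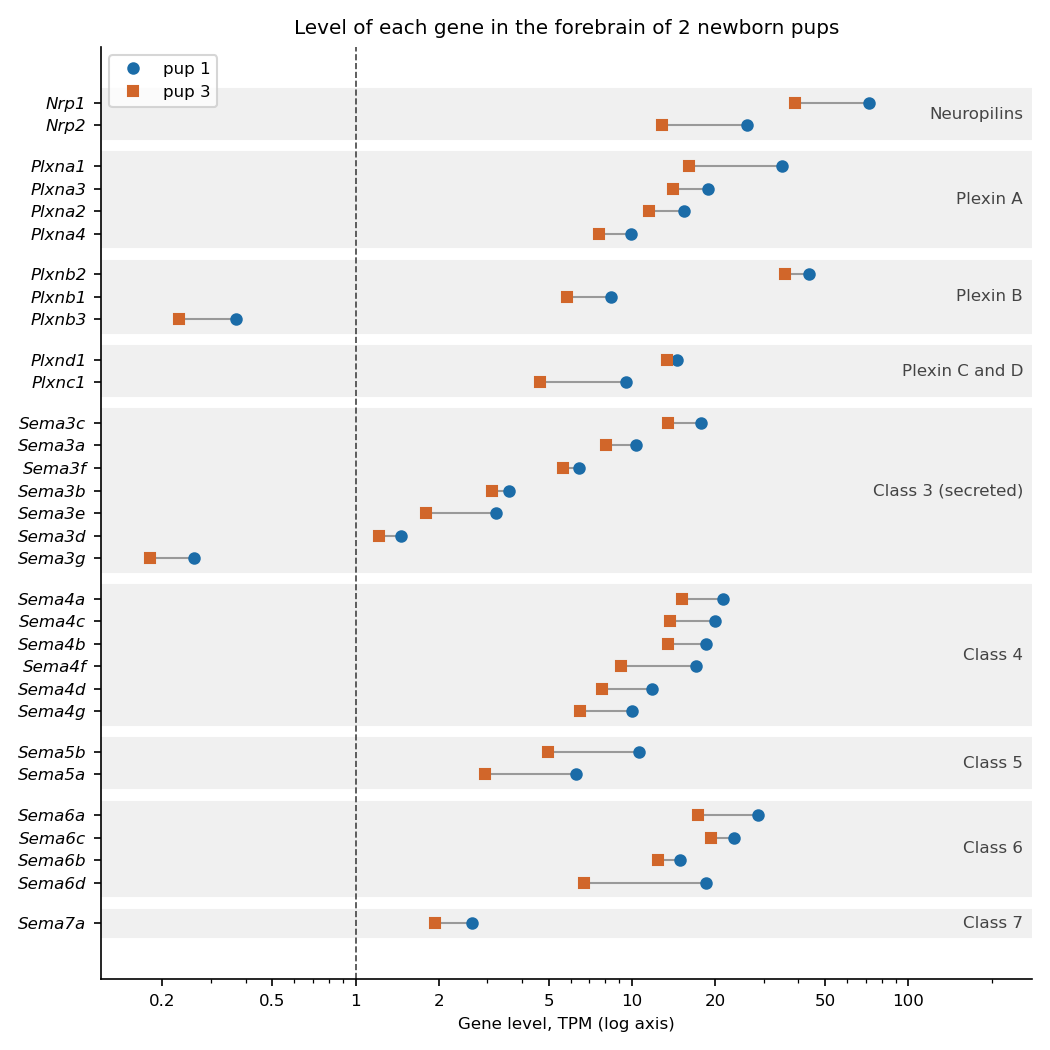
Level of each of the 31 genes in TPM on a log axis, with pup 1 as circles, pup 3 as squares, and a dashed line at 1 TPM, the limit for calling a gene detected. Nrp1 stood highest in both pups at 72.00 and 38.98 TPM, and only Plxnb3 and Sema3g lay left of the line.

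The neuropilins were among the highest genes of the family. Nrp1, the co-receptor of Sema3a and also of VEGF, lies on chromosome 8 at 128358604 to 128503363 (GRCm38, plus strand). It reached 72.00 TPM in pup 1 and 38.98 TPM in pup 3, from 6477 and 3965 counts, and was the highest of the 31 genes in both pups. Nrp2, the co-receptor of Sema3f, lies on chromosome 1 at 62703285 to 62818695 (plus strand). It was at 26.08 in pup 1 and 12.82 TPM in pup 3, from 3835 and 2187 counts. The log2 ratio of Nrp1 to Nrp2 within a library was 1.46 in pup 1 and 1.60 in pup 3, so that their proportion differed far less between the pups than the level of either gene.

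Nrp2 is known to be made in several forms that differ in short inserts and in the end that spans the membrane and reaches into the cell, and the deposited transcript values separate them. The annotation holds 6 full-length coding transcripts, defined here as protein-coding transcripts with at least 80% of the gene's longest coding sequence. The coding segments in which they differ are printed below from the annotated transcripts, plus strand, 5′ to 3′, because they are what separates the forms. Capitals mark a 15-base extension of a 21-base stretch of coding exon. For each of the 2 alternative last coding exons the first 120 bases are shown.
Extension (chr1:62786281-62786316): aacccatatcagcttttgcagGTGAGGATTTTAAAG
Skipped exon (chr1:62812534-62812584): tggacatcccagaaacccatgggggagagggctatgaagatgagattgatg
Last coding exon of 302 bases (chr1:62815333-62815452): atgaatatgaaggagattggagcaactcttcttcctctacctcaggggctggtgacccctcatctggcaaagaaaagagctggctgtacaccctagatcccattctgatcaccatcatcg
Last coding exon of 278 bases (chr1:62795709-62795828): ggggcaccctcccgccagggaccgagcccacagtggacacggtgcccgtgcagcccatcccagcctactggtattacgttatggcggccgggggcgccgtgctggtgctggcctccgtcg

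Transcripts ending in the 302-base exon held 56.3% of the full-length coding TPM of Nrp2 in pup 1 and 59.1% in pup 3. Those ending in the 278-base exon held the other 43.7% and 40.9%. The 15-base extension, which adds 5 codons, was in transcripts with 38.9% and 39.8% of that TPM. The 51-base exon, which adds 17 codons, was in 9.24% and 10.2%, and in the annotation it occurs only together with the 302-base end. The shares differed by less than 3 percentage points between pups whose total Nrp2 level differed 2.03-fold. By estimated counts the 278-base end held 35.3% and 33.7%. Libraries of oligo-dT primed and fragmented cDNA assign short reads to whole transcripts by a statistical estimate, so single junctions were not read here.

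The A-type plexins, which signal for class 3 semaphorins with a neuropilin and for class 6 semaphorins without one, were all detected. Plxna1 (chromosome 6, 89316314 to 89362620) was highest at 34.78 in pup 1 and 16.14 TPM in pup 3. Plxna3, on the X chromosome, was at 18.88 and 14.11 TPM. Plxna2, a receptor of Sema6a, was at 15.38 and 11.55 TPM. On full-length coding transcripts Plxna2, at 14.07 and 9.75 TPM, was above Plxna3, at 10.40 and 9.24 TPM, so their order in gene TPM was turned. Plxna4, which pairs with Nrp1 for Sema3a and also binds Sema6a, was lowest at 9.95 and 7.59 TPM. Pup 1 was higher for each of the 4, and Plxna1 ranked first and Plxna4 last in both pups. The log2 ratio of Plxna4 to Plxna2 was nearly the same in the pups by gene TPM, at -0.61 ± 0.02. On full-length coding transcripts it was -0.53 in pup 1 and -0.38 in pup 3. The ratio of Plxna1 to Plxna3 by gene TPM differed more, at 0.88 in pup 1 and 0.19 in pup 3.

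The B-type plexins, receptors of class 4 semaphorins, spanned the widest range of any class. Plxnb2 (chromosome 15, 89155549 to 89180788), which binds Sema4c and acts in neural progenitors, was at 43.66 in pup 1 and 35.92 TPM in pup 3, next to Nrp1 in both. Plxnb1, the receptor of Sema4d, was at 8.43 and 5.80 TPM. Plxnb3, a receptor for Sema5a known from the oligodendrocyte lineage, was at 0.37 and 0.23 TPM, from 53 and 41 counts, and was not detected by the limit used here. It lies near Plxna3 on the X chromosome, whose mean level was 16.50 TPM. Plxnd1, a receptor for Sema3e that needs no neuropilin and is prominent in blood vessels, was at 14.58 and 13.42 TPM. Plxnc1, the receptor of Sema7a, was at 9.48 and 4.64 TPM. Plxnd1 was higher than Plxnc1 in both pups by gene TPM, but in pup 1 the order turned on full-length coding transcripts, where they were at 8.60 and 9.03 TPM.

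The secreted class 3 semaphorins ranged in mean level from 0.22 TPM for Sema3g to 15.64 TPM for Sema3c. Sema3c, which can act through either neuropilin, was the highest at 17.82 in pup 1 and 13.46 TPM in pup 3. Sema3a, the classical repellent for Nrp1-bearing axons, was at 10.36 and 8.03 TPM. Sema3f, its counterpart for Nrp2, was at 6.43 and 5.64 TPM. The order of Sema3c, Sema3a and Sema3f held in both pups, with log2 ratios of 0.76 ± 0.03 for Sema3c to Sema3a and 0.59 ± 0.13 for Sema3a to Sema3f. On full-length coding transcripts the order was kept, but these ratios were 0.30 ± 0.04 and 1.13 ± 0.19. Sema3b was at 3.60 and 3.11 TPM, Sema3e at 3.22 and 1.80 TPM, and Sema3d at 1.46 and 1.22 TPM. Sema3g, known mainly from endothelium, was the lowest of the 31 genes at 0.26 and 0.18 TPM, from 30 and 24 counts. Summed over the 7 genes, class 3 reached 43.15 TPM in pup 1 and 33.44 TPM in pup 3, against 98.08 and 51.80 TPM for the 2 neuropilins.

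The membrane-bound class 4 semaphorins, which bind B-type plexins and Plxnd1, were all detected and lay within a narrow range. Sema4a led at 21.31 in pup 1 and 15.21 TPM in pup 3. Sema4c, a ligand of Plxnb2, was at 19.95 and 13.78 TPM, and Sema4b at 18.47 and 13.55 TPM. Sema4f was at 16.98 and 9.14 TPM, Sema4d, the ligand of Plxnb1, at 11.77 and 7.77 TPM, and Sema4g, another ligand of Plxnb2, at 10.03 and 6.51 TPM. The 6 genes kept this order in both pups by gene TPM, but on full-length coding transcripts Sema4a led in neither pup. Sema4c was then first in pup 1, at 18.63 TPM against 15.92 TPM for Sema4a. In pup 3 Sema4b was first, at 13.43 TPM against 11.44 TPM for Sema4a. Sema4d exceeded Plxnb1 by a log2 ratio of 0.45 ± 0.04 in gene TPM. On full-length coding transcripts the ratio was 0.05 ± 0.05, and with the older M4 annotation it was -0.0045, so no order of the 2 genes holds.

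Of the class 5 semaphorins, which carry thrombospondin repeats and repel axons of retinal and other neurons through Plxna1 and Plxna3, Sema5b was at 10.56 in pup 1 and 4.98 TPM in pup 3. Sema5a was at 6.29 and 2.93 TPM. Their log2 ratio in gene TPM was 0.74 in pup 1 and 0.75 in pup 3, the smallest spread among the 12 pairs measured on that scale. In plain TPM, Sema5b was 2.12 times and Sema5a 2.15 times higher in pup 1. The size of the ratio depended on the scale. It was 1.23 and 1.18 on full-length coding transcripts, -0.18 and -0.20 in counts, and 1.29 on average with the M4 annotation.

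Class 6 semaphorins are transmembrane ligands for A-type plexins and can also act as receptors. Sema6a was highest at 28.67 TPM in pup 1, with 17.34 TPM in pup 3, where Sema6c was higher by gene TPM but not on full-length coding transcripts (12.17 against 13.95 TPM). Sema6c was at 23.48 and 19.26 TPM, and Sema6b at 14.97 and 12.41 TPM. Sema6d (chromosome 2, 124089969 to 124667770), a ligand of Plxna1, was at 18.55 in pup 1 and 6.69 TPM in pup 3, from 2651 and 1067 counts. Sema6d was above Sema6b in pup 1 and below it in pup 3. The log2 ratio of Sema6a to Sema6d was 0.63 in pup 1 and 1.36 in pup 3, and that of Sema6a to its receptor Plxna2 was 0.74 ± 0.22. Sema7a, which is anchored to the membrane by a lipid and promotes axon growth through integrins as well as binding Plxnc1, was at 2.64 and 1.94 TPM, from 135 and 171 counts.

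The 8 full-length coding transcripts of Sema6d differ in coding exons whose lengths are all whole numbers of codons. They are printed from the annotated transcripts, plus strand, because the gene that differed most between the pups was also spread over several forms. Capitals mark a 12-base extension of the third exon shown.
Exon of 39 bases (chr2:124660244-124660282): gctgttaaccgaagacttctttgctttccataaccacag
Exon of 57 bases (chr2:124660705-124660761): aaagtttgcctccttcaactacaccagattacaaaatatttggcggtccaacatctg
Exon of 168 bases (chr2:124662204-124662371): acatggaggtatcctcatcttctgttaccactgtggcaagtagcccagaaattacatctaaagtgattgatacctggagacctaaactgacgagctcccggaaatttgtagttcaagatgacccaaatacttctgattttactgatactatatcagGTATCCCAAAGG

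The 57-base exon was in transcripts with 38.5% of the full-length coding TPM of Sema6d in pup 1 and 37.9% in pup 3. The first 156 bases of the third exon shown were in 32.04% and 30.2%, and its 12-base extension in 30.5% and 25.9%. The 39-base exon was in 19.4% in pup 1 and 10.6% in pup 3, the largest gap between the pups among the segments of both genes. Sema6d-208, which has none of these segments, led the gene with 41.95% and 51.85% of its TPM.

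**Figure D2:**
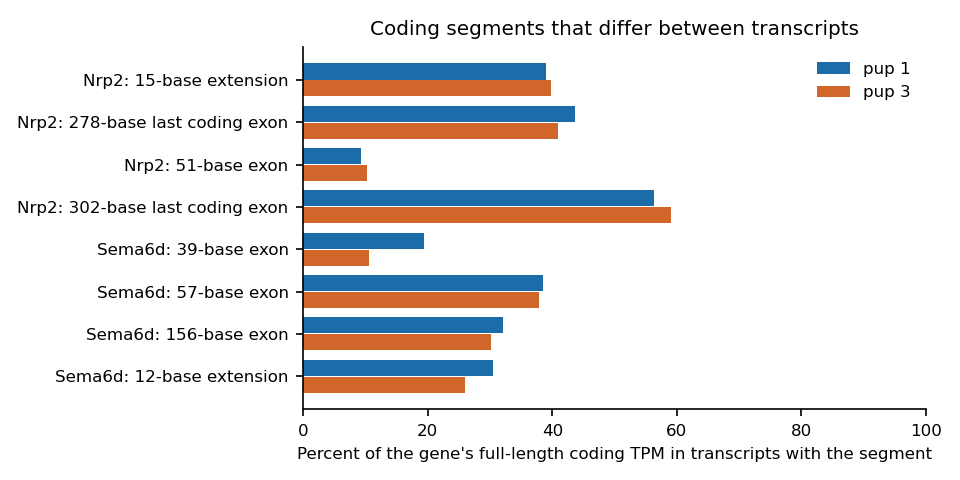
Percent of the full-length coding TPM of Nrp2 and Sema6d in transcripts that hold each coding segment, with 1 bar per pup. The 4 Nrp2 bars differed by less than 3 percentage points between pups, while the 39-base exon of Sema6d went from 19.4% in pup 1 to 10.6% in pup 3.

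Summed by class, class 4 was the largest group of semaphorins in TPM, with 39.9% of all semaphorin TPM in pup 1 and 39.99% in pup 3. Class 6 followed with 34.7% and 33.8%, and class 3 with 17.5% and 20.3%. Class 5 held 6.83% and 4.80%, and Sema7a held 1.07% and 1.18%. Among plexins the A type held 50.8% of plexin TPM in pup 1 and 45.1% in pup 3, the B type 33.7% and 38.3%, and Plxnc1 with Plxnd1 15.5% and 16.5%. On full-length coding transcripts the A type held 56.5% and 55.9%, and the B type 26.8% and 27.7%. In counts, with no correction for length, class 6 was above class 4 in pup 1, at 36.2% against 34.6%. In all, semaphorins summed to 246.82 TPM in pup 1 and 164.95 TPM in pup 3, plexins to 155.51 and 109.40 TPM, and neuropilins to 98.08 and 51.80 TPM.

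**Figure D3:**
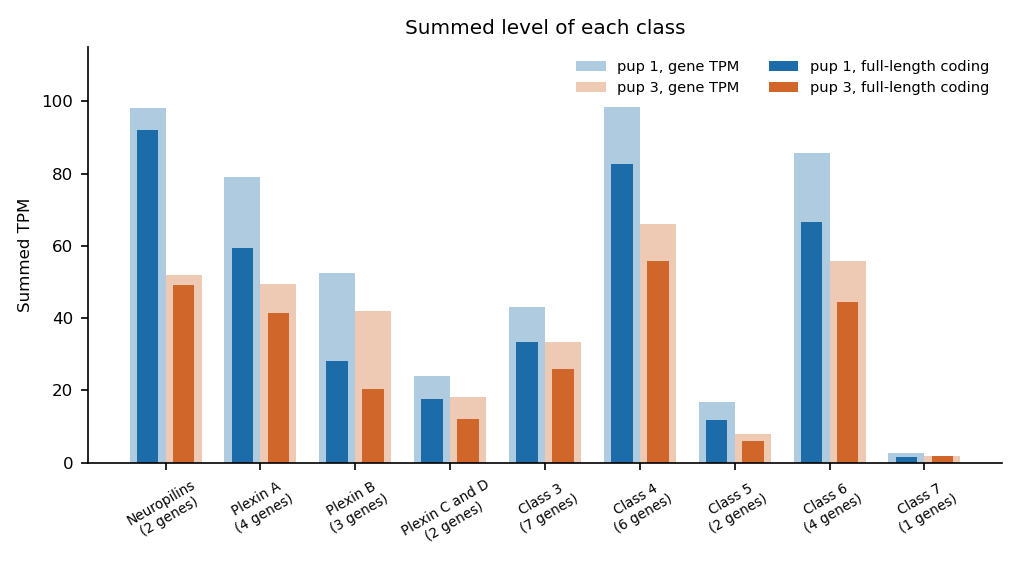
Summed TPM of each class in pup 1 and pup 3, as wide pale bars for all annotated transcripts and narrow dark bars for full-length coding transcripts alone. Plexin B shows the largest gap between the bars, from 52.46 to 28.26 TPM in pup 1.

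Of the pairs of a ligand with its receptor, those of Plxnd1 and Plxnc1 differed most in level. Sema3e was below Plxnd1 by a log2 ratio of -2.14 in pup 1 and -2.83 in pup 3. Sema7a was below Plxnc1 by -1.81 and -1.22. On full-length coding transcripts these ratios were -1.56 and -2.63 for Sema3e to Plxnd1, and -2.51 and -1.32 for Sema7a to Plxnc1. Between 2 receptors of 1 class, Plxnb2 exceeded Plxnb1 by 2.36 and 2.61, and by 1.51 and 1.71 on full-length coding transcripts. In tissue RNA, fewer cells of a type and less RNA per cell cannot be told apart, and these ratios do not say which cells hold either gene.

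How far a gene's TPM stood for a coding RNA varied. The 31 genes have 226 annotated transcripts, of which 74 are full-length coding and 97 are shorter than 1000 bases. Because TPM divides by length, few reads on a short transcript count for much. Over the genes, full-length coding transcripts held a median of 79.5% of the TPM, from 45.7% for Plxnb2 to 100% for Sema6b and Sema3g, but a median of 95.8% of the counts. The leading transcript was compared in the 22 genes with at least 5 TPM in both pups and more than 1 transcript. It was a full-length coding one in 21 of them. The exception was Plxnb2, led by Plxnb2-205, a non-coding entry of 834 bases. Its share of Plxnb2 TPM was 44.18% in pup 1 and 51.67% in pup 3, on 370 and 401 of 3892 and 3365 counts. On full-length coding transcripts alone, Plxnb2 was at 20.80 and 15.58 TPM, and ranked 5 of 31 by mean level.

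Plxnd1 went from 14.58 and 13.42 TPM to 8.60 and 7.49 TPM on that scale, with 2 short intron-retaining entries holding most of the remainder. Plxna3 went from 18.88 and 14.11 TPM to 10.40 and 9.24 TPM. Sema6c went from 23.48 and 19.26 TPM to 13.21 and 12.17 TPM, and Sema5a from 6.29 and 2.93 TPM to 3.46 and 1.83 TPM. With Plxnb2 these are the 5 genes whose full-length share was under 60%. Nrp1 kept 66.43 and 36.54 TPM, Sema4b 17.64 and 13.43 TPM, and Plxna4 9.71 and 7.46 TPM. The order of the genes was much the same on both scales (Spearman's rho 0.952 across 31 genes, a description), and the same 29 genes were detected.

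**Figure D4:**
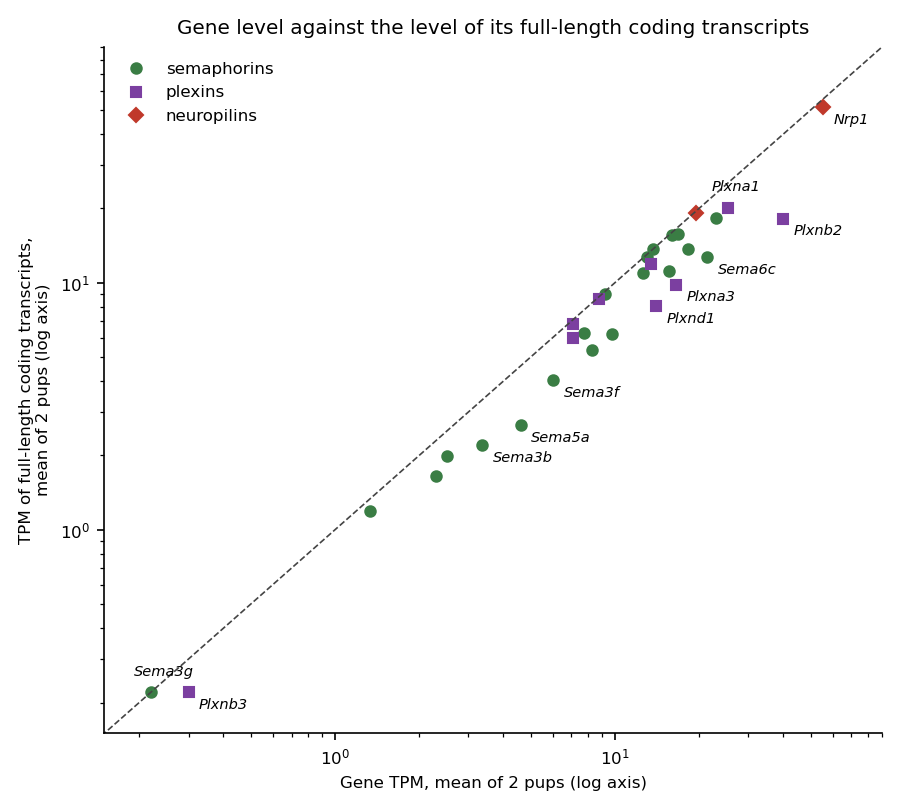
Mean TPM of each gene over both pups against the mean TPM of its full-length coding transcripts, on log axes, with a dashed line of equality. Plxnb2, Plxnd1 and Plxna3 lie furthest below the line among the plexins, and Nrp1 at 55.49 and 51.49 TPM lies near it.

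All 29 genes that averaged at least 1 TPM were lower in pup 3 than in pup 1 on the TPM scale, beside 79.6% of all genes at that level. The median log2 ratio of pup 3 to pup 1, with 1 added to each TPM, was -0.46 for the family and -0.24 for all genes, and 25 of the 29 lay below the latter. In CPM, which are counts divided by the library total with no correction for length, 27 of the 29 were lower, beside 64.3% of all genes, and the median was -0.29 against -0.10. Sema3f and Sema7a were then higher in pup 3. Counting error alone left 21 of the 29 with a 95% interval of the CPM ratio wholly below 1 and 8 with an interval that spanned 1. These intervals used CPM without scaling, in which the median of all genes was also below 0. The same count was not made over all genes, so the 21 cannot be read as particular to the family. When the libraries were scaled by TMM, 22 of the 29 were lower, beside 43.8% of all genes, and the median was -0.12, against 0.04 for all genes. Plxna3, Plxnd1, Sema3d, Sema3f, Sema6b, Sema6c and Sema7a were then higher in pup 3, so no single direction holds for the family under every scaling. The medians on the TPM scale were -0.92 for the neuropilins, -0.46 for the semaphorins and -0.39 for the plexins.

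Of the 25 genes with at least 5 TPM in a pup, 2 differed over 2-fold on the TPM + 1 scale, beside 2.5% of 11477 genes. They were Sema6d, with a log2 ratio of -1.35, and Plxna1, with -1.06. With 0.1 in place of 1 added, which shrinks low values less, Nrp2, Plxnc1, Sema5a and Sema5b were also past 2-fold and the count became 6, beside 3.83% of all genes. In CPM only Sema6d was past it, beside 1.32% of all genes, with a log2 ratio of -1.29. Its CPM ratio was 0.40, with a 95% interval of 0.37 to 0.43 that covers counting error only. For Plxna1 that ratio was 0.68 (0.66 to 0.71). The TPM of Plxna1 included Plxna1-205, a 459-base entry of the nonsense-mediated decay type, at 27.12% in pup 1 and 6.66% in pup 3. On full-length coding transcripts with 1 added, the log2 ratio of Plxna1 was -0.72, and only Sema6d stayed past 2-fold. With 0.1 added, Nrp2, at 25.55 and 12.66 TPM on those transcripts, was also past it and the count was 2. Neither count was made over all genes on that scale. Sema7a had a similar entry of 417 bases with 42.97% of its TPM in pup 1 on 9.41 counts, and 7.12% in pup 3 on 1.29 counts.

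Among detected genes, Plxnd1 and Sema3d differed least on the TPM + 1 scale, with log2 ratios of -0.11 and -0.15. Sema3g had -0.09 on this scale, where the added 1 exceeds its own level, and its plain TPM was 1.44 times higher in pup 1. The added 1 also shrinks the ratio of Sema3d. Its plain TPM was 1.20 times higher in pup 1, more than the 1.14 of Sema3f and the 1.16 of Sema3b. Plxnd1 had 1592 and 1572 counts and Sema3d had 204 in each pup. Adjacent genes in the order of mean level were often not separable: of the 30 neighbouring pairs, 12 kept their order in both pups and 18 did not.

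**Figure D5:**
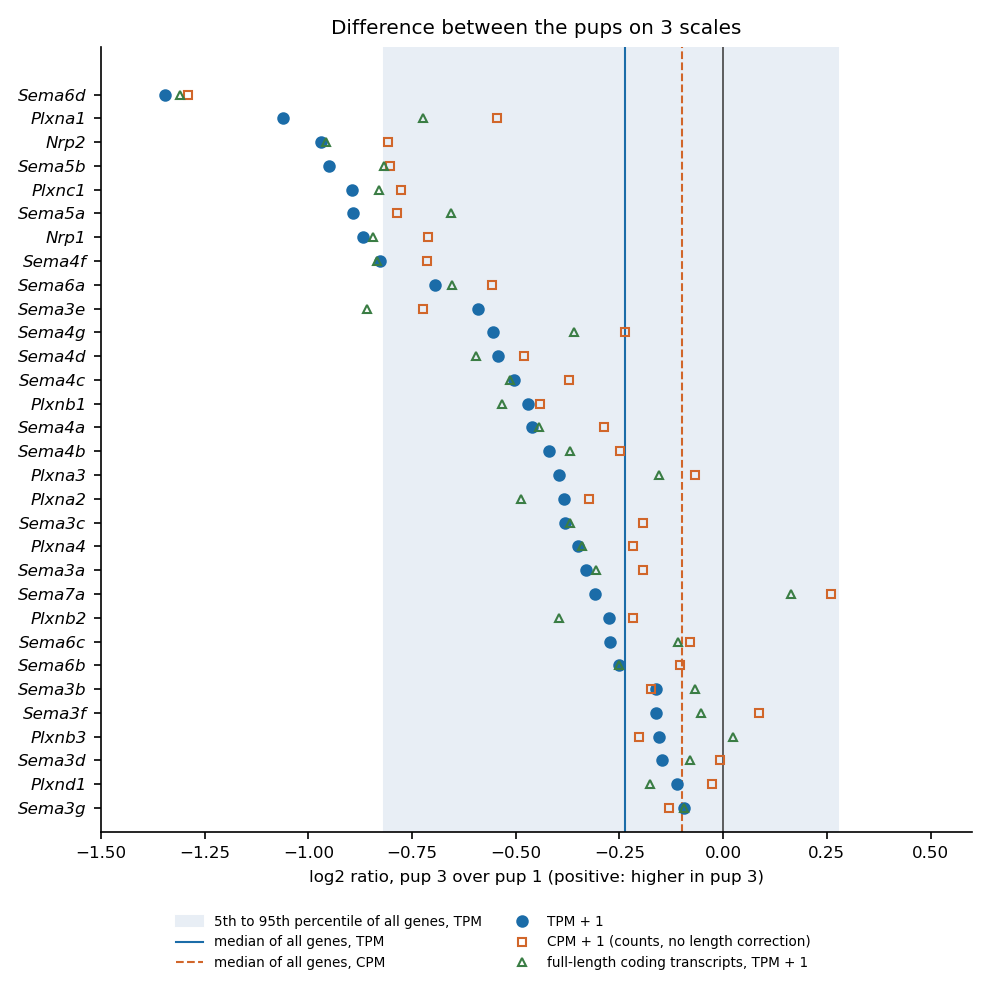
Log2 ratio of pup 3 to pup 1 for each gene, in TPM, in CPM and in TPM of full-length coding transcripts, each with 1 added, with the medians of all genes as lines and their 5th to 95th percentile in TPM as a band. Sema6d lies near -1.3 on each scale, whereas Plxna1 moves from -1.06 to -0.54 in CPM.

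The difference between the pups grew with transcript length over all protein-coding genes, and the family's genes are long. The median log2 TPM ratio was -0.26 for 3648 genes of 2000 to 3000 bases, -0.35 for 2351 genes of 3000 to 4000, -0.41 for 1863 genes of 4000 to 6000, and -0.49 for 568 longer ones. In the same length classes the family's medians were -0.27 over 5 genes, -0.52 over 8, -0.40 over 9 and -0.59 over 7. Of the genes over 6000 bases with at least 5 TPM in a pup, 13.5% differed over 2-fold with 0.1 added, and 3 of the family's 6 did. Markers of thalamus also differed between the pups. All 7 listed, among them Tcf7l2 at 233.20 and 89.58 TPM, were lower in pup 3, beside 79.6% of all genes averaging at least 1 TPM. On the TPM + 1 scale 6 of them, all but Rora, were over 2-fold apart, beside 2.5% of all genes. In CPM Slc17a6, with a log2 ratio of -0.91, and Rora, with -0.86, were not past 2-fold. The sum of the 7 was 378.45 TPM in pup 1 and 147.91 TPM in pup 3. The part of length and of thalamic tissue in the differences of the family was not tested.

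The tissue label could be checked against marker genes. Telencephalic markers were detected in 7 of 7 cases, with sums of 571.96 and 613.32 TPM. Of the 7, 4 were lower in pup 3, whereas Neurod6 was at 196.84 and 315.67 TPM. Markers of midbrain and hindbrain were detected in 0 of 7 cases, with sums of 2.13 and 1.14 TPM. Hoxb2 and Hoxa3 were at 0, whereas Slc6a3 was at 1.11 TPM in pup 1, above the limit, and 0.47 TPM in pup 3. Tph2 was at 0.86 and 0.62 TPM. Markers of endothelium, where Plxnd1, Nrp1 and Sema3g are also known, summed to 133.62 and 134.38 TPM. Cldn5 alone made up 103.92 and 108.91 TPM of these sums, and 3 of the 5 markers were lower in pup 3. Markers of oligodendrocyte lineage summed to 163.01 and 139.03 TPM. Blood markers summed to 1036.55 and 1536.72 TPM.

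Signalling partners of the family were followed in a list of 62 genes, of which 61 were detected, beside 59.5% of all protein-coding genes. The median of their mean levels was 31.97 TPM. Of the 61, 53 were lower in pup 3 in TPM, beside 79.6% of all genes averaging at least 1 TPM. The median log2 ratio of the 61 was -0.24, the same as for all genes, and 34 lay below that value. Of the 51 with at least 5 TPM in a pup, 1 differed over 2-fold on the TPM + 1 scale, beside 2.5% of all genes. It was Tiam1, an activator of Rac, at 16.97 and 7.78 TPM, a log2 ratio of -1.03. In CPM its log2 ratio was -0.49, so it was not past 2-fold there.

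The cytoskeletal effectors were the highest of these groups. The collapsin response mediators, which carry the Sema3a signal to microtubules, were at 1350.94 and 991.56 TPM for Dpysl2 and at 938.60 and 829.13 TPM for Crmp1. Cofilin, encoded by Cfl1, which severs actin filaments, was at 3485 and 3793 TPM. Mical3, of the enzymes that oxidise actin downstream of plexins, was at 14.46 and 7.38 TPM, while Mical1 was at 26.56 and 23.73 TPM. All 19 GTPases and regulators were detected, from Rac1 at 414.15 and 382.14 TPM to Farp2, a plexin-A-bound activator of Rac, at 1.72 and 1.43 TPM. Among kinases, Cdk5 was at 129.17 and 130.86 TPM and Gsk3b at 116.49 and 68.43 TPM.

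Of 17 co-receptors and binding partners 16 were detected. L1cam, which joins Nrp1 in Sema3a reception, was at 82.86 and 60.31 TPM, and Chl1, a relative, at 142.53 and 103.90 TPM. Kdr, the VEGF receptor that pairs with Nrp1, was at 10.37 and 6.42 TPM. Timd2, a receptor of Sema4a in immune cells, was at 0.16 and 0.14 TPM and was the one gene of the list not detected. Furin, which cleaves class 3 semaphorins, was at 6.35 and 5.39 TPM.

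Several of the genes are neighbours. Sema3d, Sema3a, Sema3e and Sema3c lie on chromosome 5 between 12383385 and 17730268, all on the plus strand, and their mean levels ran 1.34, 9.20, 2.51 and 15.64 TPM along the chromosome. Sema3b and Sema3f lie near each other on chromosome 9, on the minus strand, at 3.36 and 6.04 TPM. Exons of 7 of the 31 genes overlap exons of another gene, 4 of them on the opposite strand. The labels do not say whether counting used strand. For Plxna1 the opposite gene, Gm26811, shares 970 bases and had 10.34 and 1.04 counts, where Plxna1 had 5737.66 and 3945.96. In each pup the 2 fractions complete a whole number, so reads there were divided between genes on opposite strands.

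RefSeq promoters (GRCm38.p6, 250 bases before to 50 after a start) matched 26 of the 31 genes. Among these, 15 (57.7%) had a promoter with at least 20 CG dinucleotides, beside 59.1% of expressed protein-coding genes and 28.8% of all genes. The motif TATAAA, searched on both strands and so also as TTTATA, was in 0 of their 37 promoters and in 13.6% of all promoters. Its share among expressed protein-coding genes was not computed, so its absence cannot be called particular to the family. The ends of the chromosome 5 group are shown with CG in capitals, since Sema3c and Sema3d differed most in level there. Sema3c had 42 and Sema3d had 8. Sema3a and Sema3e lay between them in level, and Sema3e had 11. Nrp1, the highest of the 31 genes, had 14, so CG count did not simply follow level. The start matched for Sema3a, with 2, lies far inside the gene as annotated in GENCODE.
Sema3c (chr5:17574566-17574865, plus strand): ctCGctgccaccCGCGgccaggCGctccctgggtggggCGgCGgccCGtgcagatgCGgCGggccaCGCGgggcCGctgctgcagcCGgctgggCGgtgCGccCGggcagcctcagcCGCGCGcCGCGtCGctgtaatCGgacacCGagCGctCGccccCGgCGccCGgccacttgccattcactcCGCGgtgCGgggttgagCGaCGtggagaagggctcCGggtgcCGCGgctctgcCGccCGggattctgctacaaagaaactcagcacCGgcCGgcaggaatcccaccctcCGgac
Sema3d (chr5:12382916-12383215, plus strand): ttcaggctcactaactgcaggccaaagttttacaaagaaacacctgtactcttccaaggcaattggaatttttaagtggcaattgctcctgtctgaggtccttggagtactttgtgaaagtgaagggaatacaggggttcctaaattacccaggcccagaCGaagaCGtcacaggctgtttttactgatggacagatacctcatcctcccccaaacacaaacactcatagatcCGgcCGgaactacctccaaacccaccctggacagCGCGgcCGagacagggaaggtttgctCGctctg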

How the data were processed

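Gene and transcript tables of 1 library per pup were used. Estimated counts, called expected counts in the tables, were deposited by the authors per gene and transcript. TPM, also as a posterior mean, and FPKM were deposited by the authors too, scaled by effective length. The percent of a gene's TPM in each transcript was deposited as well. Per the deposited file list, values came from transcriptome alignments to mm10 with annotation M21 (used here) or M4; the aligner, quantifier and strand setting were not given in the sources used here.

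Names and structures came from GENCODE M21, which matched 55536 of 81881 listed features. Members and lists were chosen with earlier results of these data known. Full values are given for genes averaging at least 5 TPM, the ends of each class, genes under 1 TPM in both pups, the 3 largest differences each way with at least 50 counts, and 12 pairs. Ratios used a pseudocount of 1 (0.1 for pairs). CPM were computed from counts and used no scaling, or TMM (edgeR 4.0.16) or DESeq2 1.42.0 size factors as alternatives; no count model was fitted, as 1 group of 2 pups has no contrast. The choice of full-length coding transcripts was made after seeing the data. Python 3.11.15 and R 4.3.3 were used. Intervals and depth cover counting error only.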

Additional observations from a re-analysis of the deposited data

Results flagged for a closer look

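Antisense genes of Plxna4, which no comparison uses, held counts above 0 in both pups. Plxna4os1 had 10 expected counts in pup 1 and 8 in pup 3, and Plxna4os2 had 14 in pup 1 and 9 in pup 3. Plxna4os3 had 0 in both. The strand setting of the counting is not given in the sources used here. Reads were divided between Plxna1 and the opposite-strand Gm26811, at 5737.66 and 10.34 counts in pup 1. The counts of the antisense genes therefore cannot be taken as RNA of their strand. Plxna4 itself had 3248 and 2808 counts.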

How the results depend on the processing

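The count of genes detected ran from 29 to 29 with either pup left out, and the median level from 8.03 to 14.58 TPM. The count was 28 in FPKM and 22 at a limit of 5 TPM. The count over 2-fold apart, 2 in TPM with 1 added, was 6 with a pseudocount of 0.1. With 1 added, it was 1 each with FPKM, posterior mean TPM, M4 annotation, CPM without scaling, TMM, DESeq2 size factors and full-length coding transcripts. The median difference of -0.46 was -0.22 minus the median of all genes, -0.30 in FPKM, -0.29 in CPM, -0.12 with TMM and -0.14 with DESeq2 size factors. Without a length correction, in expected counts, 3 pairs reversed: Sema5b to Sema5a was -0.19, Sema4d to Plxnb1 -0.76 and Sema6a to Plxna2 -0.42. With the M4 annotation Sema4d to Plxnb1 was -0.0045. By counts the A-type share of plexins was 62.9% on average, against 48.0% in TPM, and the B-type share 23.6% against 36.0%. The leading transcript was the same in both pups for 20 of 22 genes and led in M4 for 21. Differences between the pups could not be computed with a pup left out. No paired analysis was possible because the study has 1 group. With 2 pups, an SD rests on a single difference, and Plxnb3 and Sema3g rest on under 60 counts a pup.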
